A study of Mus musculus with 15 samples.

Results

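The data described here are the levels of 9 mouse genes that report on Wnt signalling and on the position of a hepatocyte in the liver lobule, in livers and liver tumors driven by the oncogene MYC. They were chosen by name, as every array probe whose symbol in the authors' normalized table is Glul, Axin2, Lgr5, Tbx3, Rhbg, Oat, Lect2, Rnf43 or Ctnnb1, and make up 9 of the 21523 gene symbols on the array and 16 of its 34908 probes with a symbol. All mice were FVB/N and carried LAP-tTA, a transgene that makes the doxycycline-repressed activator tTA from a liver promoter, so that doxycycline keeps its target off. Control livers (n = 3) came from mice with LAP-tTA alone. The other groups carried LAP-tTA together with TRE-MYC, a MYC transgene that tTA switches on. Pre-tumor livers (n = 4) were taken 4 to 5 weeks after doxycycline was withdrawn, before any tumor was present. Tumors (n = 4) were nodules taken 8 to 9 weeks after withdrawal. Regressing tumors (n = 4) had the same 8 to 9 weeks without the drug and then 72 hours with doxycycline again. Mice had eaten chow with 200 mg of doxycycline per kg until they were over 8 weeks old. The labels do not give the time off the drug for the control mice, nor whether the samples of a group came from different mice, so p-values measure the spread between these samples only.

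In Wnt signalling, a secreted Wnt protein binds Frizzled and Lrp receptors and halts the complex that destroys beta-catenin, the product of Ctnnb1. Beta-catenin then enters the nucleus and switches on target genes with DNA-binding factors of the TCF/LEF family. In the liver lobule, Wnt and R-spondin proteins from the endothelium of the central vein keep this pathway active in the hepatocytes nearby (pericentral), while hepatocytes near the portal vein (periportal) run the urea cycle and gluconeogenesis. Glul (glutamine synthetase), Rhbg (an ammonium transporter) and Oat (ornithine aminotransferase) are enzymes and a carrier of the pericentral hepatocyte. Lect2 is a secreted liver protein, and Tbx3 a transcription factor, both known as beta-catenin targets in mouse liver. Axin2, Lgr5 and Rnf43 are targets that feed back on the pathway. Axin2 is a scaffold of the destruction complex, Lgr5 a receptor for R-spondins, and Rnf43 a ubiquitin ligase that removes Frizzled receptors.

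The promoters of Lect2, Glul and Oat, the 3 members whose tumor levels lay below every control and pre-tumor liver, are shown because TCF/LEF factors bind target promoters directly. Each runs from 250 bases before to 50 bases after the gene's start, read 5' to 3' on the gene's strand, from RefSeq on GRCm38.p6. Capitals mark a TCF/LEF core string where there is one.
Lect2, chr13:56548489-56548788, minus strand: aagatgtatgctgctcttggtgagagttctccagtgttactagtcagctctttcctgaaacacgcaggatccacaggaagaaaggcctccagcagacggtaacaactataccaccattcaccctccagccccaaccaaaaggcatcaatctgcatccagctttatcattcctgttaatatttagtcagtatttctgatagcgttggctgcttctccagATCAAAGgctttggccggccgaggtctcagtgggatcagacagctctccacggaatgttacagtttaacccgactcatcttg
Glul, chr1:153899679-153899978, plus strand: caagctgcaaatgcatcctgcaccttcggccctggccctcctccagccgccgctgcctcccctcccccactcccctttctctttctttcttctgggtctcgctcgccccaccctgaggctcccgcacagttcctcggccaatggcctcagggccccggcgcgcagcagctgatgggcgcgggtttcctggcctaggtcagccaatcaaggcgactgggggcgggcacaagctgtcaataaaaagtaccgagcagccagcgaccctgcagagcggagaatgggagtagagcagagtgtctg
Oat, chr7:132576349-132576648, minus strand: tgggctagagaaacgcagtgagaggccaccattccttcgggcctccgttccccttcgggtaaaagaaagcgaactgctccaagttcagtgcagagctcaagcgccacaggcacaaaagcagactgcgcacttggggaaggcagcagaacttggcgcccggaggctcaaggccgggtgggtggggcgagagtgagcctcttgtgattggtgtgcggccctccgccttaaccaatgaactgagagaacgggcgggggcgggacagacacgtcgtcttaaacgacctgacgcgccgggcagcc
Of the 9 members, 6 matched an entry (Glul, Axin2, Oat, Lect2, Rnf43 and Ctnnb1), with 8 promoters in all. They were searched on both strands for CTTTGAT, the core string of TCF/LEF sites, and for its variants, spelled CTTTGAA, spelled CTTTGTT or spelled CTTTGTA. These 4 strings share their opening letters and so cannot overlap on the same strand. Only the Lect2 promoter held a match among these 8. It is CTTTGAT on the opposite strand, printed above as ATCAAAG, with its first base at position -32 relative to the start. Of all 32851 promoters of this length, 3.73% held CTTTGAT on either strand and 16.9% held at least 1 of the 4 strings. A match is a description of the letters, not of binding. Bases outside these windows were not searched, so the lack of a match says nothing of sites elsewhere.

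RNA was measured on 15 Agilent 1-colour arrays. A level below is the log2 processed signal minus the array's 75th percentile, so a level of 0 is the signal at that percentile. No level of a probe can be set against that of another. Probes that cleared the background on 3 or more of the 15 arrays were tested, and the brightest of a gene's probes stood for the gene. Changes are limma log2 differences with their standard error (SE) from 1 model of the 4 groups, adjusted by the Benjamini-Hochberg method over 19334 genes, with a gene called at an adjusted p under 0.05. Between 46.4% and 69.9% of spots were well above background on 11 arrays. On 4 arrays it was 73.0% to 90.8%, and the same arrays had the highest signal at the E1A control probes, with medians of 25.6 to 76.1 against 2.58 to 10.4 on the others. These 4 arrays are control 1, pre-tumor 1 and 4, and tumor 4, and none is a regressing tumor. The Myc probes disagreed. Probe A_52_P108346 had levels of 4.22 ± 0.48 in tumors and -0.93 ± 0.70 in control livers, and A_52_P278549 0.81 ± 0.36 in tumors and 1.92 ± 0.28 in control livers (SD, n = 4 and 3). The third, A_51_P102096, was also lower in tumors, at -3.16 ± 0.59, than in control livers, at -1.97 ± 0.37. How far each probe reads the transgene was not tested.

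All groups carried the defining transcripts of hepatocytes. Of 8 hepatocyte-defining genes on a list (Alb, Apoa1, Apob, Ttr, Trf, Fgb, Ahsg and Serpina1c), 7 were tested and none was below background on every array of a group. Their mean level was 7.59 to 7.81 in control livers, 7.08 to 8.60 in pre-tumor livers, 5.08 to 6.57 in tumors and 7.46 to 8.10 in regressing tumors. In tumors 6 of the 7 fell relative to control livers, and all 7 were higher in regressing tumors than in tumors. Of 5 hepatoblast genes (Afp, Igf2, H19, Dlk1 and Gpc3), 4 rose in tumors relative to control livers and all 5 did in regressing tumors relative to control livers. Their mean level was -3.16 to -2.56 in control livers, -2.81 to -1.85 in pre-tumor livers, 2.45 to 4.84 in tumors and 5.14 to 6.34 in regressing tumors, with Afp not well above background in any control liver. The part of these hepatocyte and hepatoblast transcripts in the results below was not tested. In bulk tissue, fewer cells of a type and less RNA per cell cannot be told apart.

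Tumors held less RNA of 4 of the 8 tested members than control livers did: Lect2, Oat, Glul and Tbx3 fell, and none rose. The same 4 genes fell relative to pre-tumor livers. In regressing tumors Lect2 was higher than in tumors, while Oat was still below both liver groups. Among all genes tested, 6.99% fell and 9.36% rose in tumors relative to control livers, and 9.09% fell and 10.0% rose relative to pre-tumor livers. In regressing tumors relative to tumors 8.36% rose and 8.46% fell, and the members gave 1 higher and 0 lower. Relative to control livers 3.31% of genes fell and 5.02% rose in regressing tumors, against 1 member lower (Oat). Relative to pre-tumor livers 4.91% fell and 5.03% rose, against 2 members lower (Oat and Lect2). In pre-tumor livers 0% of genes rose and 0% fell relative to control livers by limma, 505 of 19334 genes had an unadjusted p under 0.05, and no member was called. The median difference of the 8 members was -1.45 between tumors and control livers and -1.61 between tumors and pre-tumor livers, where the medians over all genes were -0.18 and -0.13. For regressing tumors minus tumors it was 0.06 (all genes -0.13), and between pre-tumor and control livers 0.29 (all genes -0.04). Between regressing tumors and control livers it was -1.51 (all genes -0.25), and between regressing tumors and pre-tumor livers -1.88 (all genes -0.21). The middle values behind the -1.88 are those of Lgr5 (-2.10) and Rnf43 (-1.65), each well above background on 0 of 4 regressing tumors. Rnf43 is also a middle value behind the -1.51 (-1.48) and the -1.45 (-1.23). These 3 medians thus rest in part on signals near or under the detection limit. When arrays were centred on their median instead, the median of all genes in tumors minus control livers was 0.14 in place of -0.18, and 68.6% of that comparison's calls were higher in place of 57.2%. The share of higher calls moved in the same way in tumors against pre-tumor livers (62.8% in place of 52.5%), regressing tumors against control livers (72.1% in place of 60.3%) and regressing tumors against pre-tumor livers (64.1% in place of 50.6%). Lect2, Oat and Tbx3 were called lower in tumors under that centring too, and Glul was not.

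**Figure D1:**
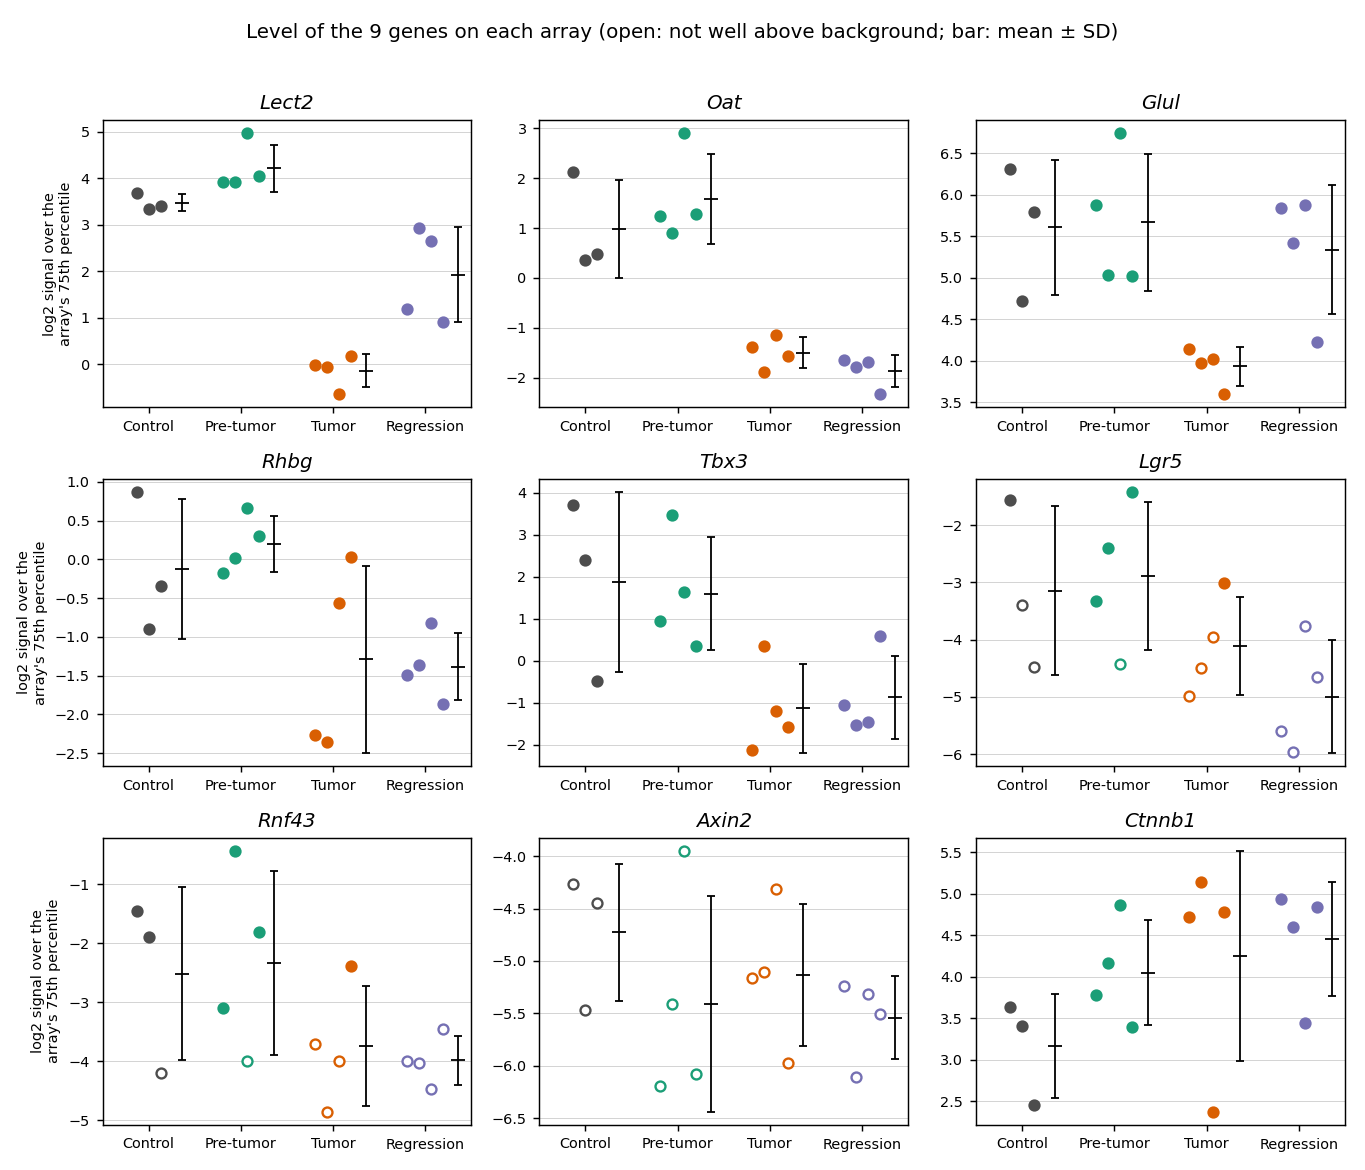
Level of each of the 9 genes on every array (log2 signal over the array's 75th percentile, vertical axis) in control livers, pre-tumor livers, tumors and regressing tumors. Open points are not well above background and bars give the mean ± SD. For Lect2, Oat and Glul all 4 tumors sit below every control and pre-tumor liver, and every Axin2 point is open.

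Lect2 had the lowest adjusted p of the members in tumors against both liver groups. Its level was 3.69, 3.33 and 3.41 in control livers, 3.92, 3.92, 4.97 and 4.05 in pre-tumor livers, -0.02, -0.07, -0.65 and 0.18 in tumors, and 1.20, 2.94, 2.65 and 0.90 in regressing tumors. The 4 groups do not overlap, and their order is pre-tumor, control, regression, tumor. The difference was -3.61 ± 0.47 (SE) between tumors and control livers, a 12.2-fold lower signal, with an adjusted p of 5.76e-05 by limma. Relative to pre-tumor livers it was -4.36 ± 0.44 (adjusted p = 3.13e-06 by limma), a 20.5-fold lower signal. The regressing tumors stood between tumors and livers. They exceeded the tumors by 2.06 ± 0.44, a 4.18-fold higher signal (adjusted p = 0.00407 by limma), and were below pre-tumor livers by a difference of -2.29 ± 0.44 (adjusted p = 0.00271). Between regressing tumors and control livers the difference was -1.55 ± 0.47 and missed the threshold (adjusted p = 0.0561 by limma), which it passed in 8 of 27 other settings. The pre-tumor and control livers, neighbours at the top of the order, differed by 0.74 ± 0.47 (adjusted p = 1.00 by limma). Regressing tumors fall into a higher pair (2 and 3) and a lower pair (1 and 4), all above the tumors. Each of the 4 Lect2 calls held in all 27 other settings.

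Oat was the other member whose calls held in every setting tried, and it stayed low after doxycycline was given back. Its level was 2.12, 0.35 and 0.49 in control livers, 1.24, 0.89, 2.90 and 1.27 in pre-tumor livers, -1.39, -1.88, -1.15 and -1.56 in tumors, and -1.64, -1.79, -1.67 and -2.33 in regressing tumors. All 8 tumors and regressing tumors lie below all 7 livers. The difference between tumors and control livers was -2.48 ± 0.50, or 5.58-fold lower (adjusted p = 0.00228 by limma), and that between tumors and pre-tumor livers -3.07 ± 0.46, or 8.39-fold lower (adjusted p = 0.000163 by limma). The regressing tumors were 7.18-fold below control livers (-2.84 ± 0.50, adjusted p = 0.0016 by limma) and 10.8-fold below pre-tumor livers (-3.43 ± 0.46, adjusted p = 0.000148). Between regressing tumors and tumors, the lowest neighbours in its order, the difference was -0.36 with a 95% interval of -1.34 to 0.62 (adjusted p = 0.741 by limma). The upper end of that interval lies below the 2.06 estimated for Lect2, whose own 95% interval was 1.13 to 3.00. This is not a test between the 2 genes. The direct comparison below did not pass its adjustment, which a few pairs could not pass with so few arrays. Control 1 and pre-tumor 3 were the highest of their groups for Oat, as they were for Lect2 and for the brightest Glul probe.

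Glul, which joins glutamate and ammonia into glutamine, was lower in tumors. In regressing tumors it lay between tumors and livers, and how far it overlapped with the livers differed between its probes. Its brightest probe, A_52_P143866 (chromosome 1), gave levels of 6.31, 4.72 and 5.80 in control livers, 5.87, 5.03, 6.74 and 5.02 in pre-tumor livers, 4.14, 3.97, 4.03 and 3.60 in tumors, and 5.84, 5.42, 5.87 and 4.22 in regressing tumors. No tumor reached the lowest liver, and regressing tumor 4 lay just above the highest tumor. The difference was -1.68 ± 0.51 between tumors and control livers, 3.20-fold lower (adjusted p = 0.0339 by limma), and -1.73 ± 0.47 between tumors and pre-tumor livers, 3.32-fold lower (adjusted p = 0.0156). Against pre-tumor livers the call was lost without the 4 arrays of highest E1A signal (adjusted p = 0.0754) and with median centring (adjusted p = 0.0832). The call against control livers was lost in 9 of 29 other settings, among them without the 4 arrays of highest E1A signal (-1.21, adjusted p = 0.217) and without control 1 (-1.32, adjusted p = 0.15), control 3 or any 1 of the 4 tumors. Regressing tumors exceeded tumors by 1.40 ± 0.47, 2.65-fold (adjusted p = 0.0534 by limma), which just missed the threshold, and 14 of 29 other settings called it. The other 2 Glul probes, both tested among all probes, called it on their own, at 1.36 ± 0.39 for A_51_P441798 (adjusted p = 0.027) and 1.23 ± 0.32 for A_52_P101279 (adjusted p = 0.0156). Both also gave lower levels in tumors than in control livers, with -1.93 ± 0.43 (adjusted p = 0.005) and -2.05 ± 0.35 (adjusted p = 0.000684). Probe A_52_P101279 had the least spread in tumors, with levels of 3.07, 3.09, 3.07 and 2.96 there, against 4.94, 4.71 and 5.65 in control livers. Between regressing tumors and control livers the difference was -0.27 (95% interval -1.36 to 0.81) for the brightest probe and -0.82 (-1.56 to -0.08, adjusted p = 0.161) for A_52_P101279. On A_52_P101279 the regressing tumors, at 4.28, 4.51, 4.46 and 3.86, all lay below the lowest liver, whereas on the brightest probe they overlapped with the livers. The mean of the tumors was the lowest and that of the regressing tumors the next on each of the 3 probes.

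**Figure D2:**
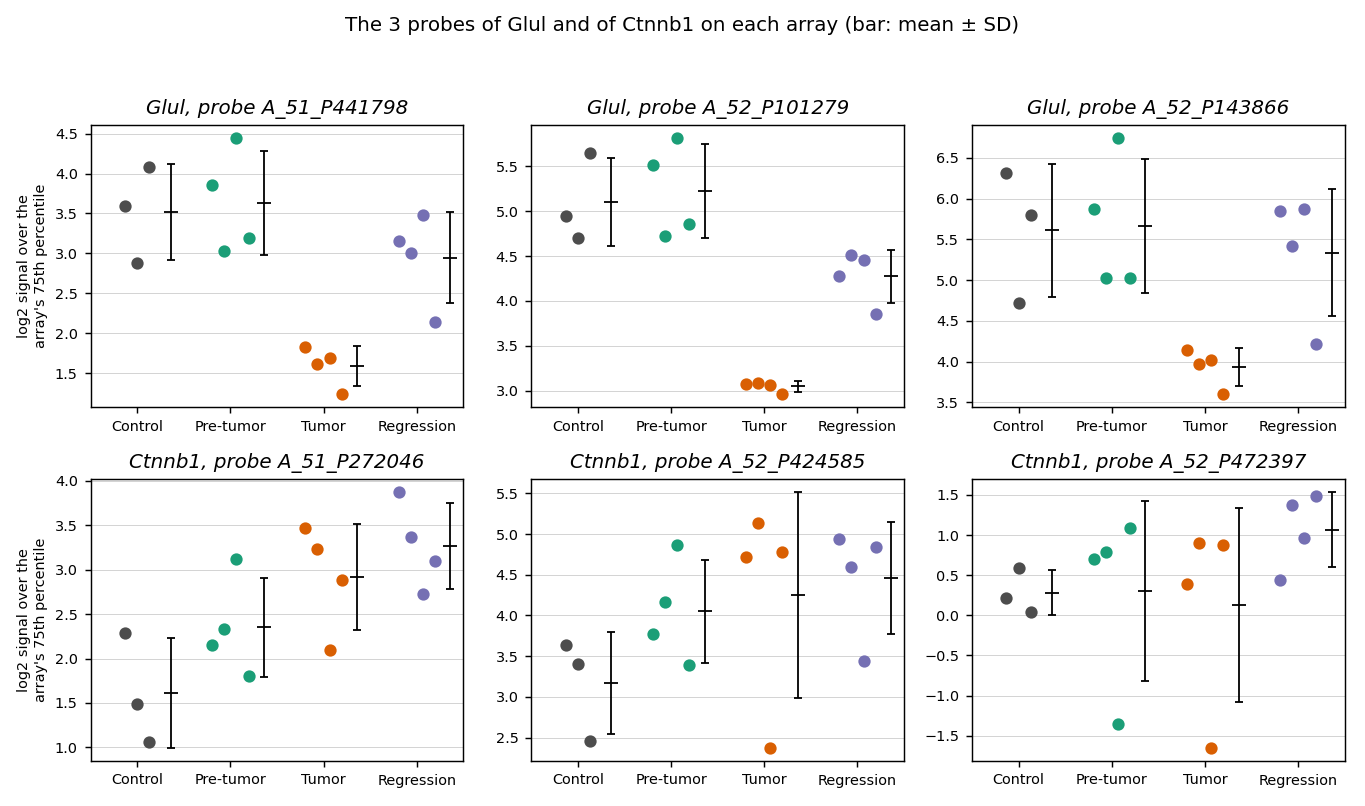
Levels (log2 signal over the array's 75th percentile, vertical axis) of the 3 probes of Glul and the 3 of Ctnnb1 on each array of the 4 groups, with mean ± SD as bars. Tumors are lowest on every Glul probe, and tumor 3 is the lowest tumor on every Ctnnb1 probe.

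Rhbg, the ammonium transporter, was not called, although other settings called it lower in tumors against pre-tumor livers (6 of 27), in regressing tumors against pre-tumor livers (4 of 27) and in tumors against control livers (1 of 27). Its level was 0.87, -0.89 and -0.34 in control livers, -0.17, 0.01, 0.66 and 0.30 in pre-tumor livers, -2.26, -2.36, -0.57 and 0.03 in tumors, and -1.49, -1.36, -0.82 and -1.86 in regressing tumors. Tumors 1 and 2 were the lowest of all arrays, whereas tumors 3 and 4 lay within the range of the control livers. The difference between tumors and pre-tumor livers was -1.49 ± 0.53 (adjusted p = 0.0605 by limma) and between tumors and control livers -1.17 ± 0.57 (adjusted p = 0.19). Regressing tumors all lay below the lowest pre-tumor liver, by a difference of -1.58 ± 0.53 that missed the threshold (adjusted p = 0.0713 by limma). In regressing tumors minus tumors it was -0.09 (95% interval -1.21 to 1.02). The regressing tumors thus lay inside the range of the tumors.

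Tbx3 was called lower in tumors, with the largest standard error of the 8 tested members. Its brighter probe, A_52_P183368 (chromosome 5), had levels of 3.71, 2.41 and -0.48 in control livers, 0.96, 3.46, 1.63 and 0.34 in pre-tumor livers, -2.13, 0.35, -1.18 and -1.57 in tumors, and -1.05, -1.54, -1.46 and 0.58 in regressing tumors. Control 3 lies among the tumors, and tumor 2 among the livers, so the groups overlap. The difference between tumors and control livers was -3.01 ± 0.92 (adjusted p = 0.0348 by limma) and that between tumors and pre-tumor livers -2.73 ± 0.85 (adjusted p = 0.0336). These calls were lost in 10 and 7 of 28 other settings. The call against control livers was lost without control 1 (-2.09, adjusted p = 0.179), without control 2 (-2.74, adjusted p = 0.114), without tumor 1, 3 or 4, and without the 4 arrays of highest E1A signal (-1.95, adjusted p = 0.214), and that against pre-tumor livers without pre-tumor 2 or 3 or tumor 1, 3 or 4. The dimmer probe, A_52_P389431, was well above background on 5 arrays (control 1 and 2, pre-tumor 1, 2 and 4) and was not called (-1.37 ± 0.68 in tumors against control livers, adjusted p = 0.205). In regressing tumors the brighter probe stood near the tumor level, with a difference of 0.27 (95% interval -1.55 to 2.08). Its differences from the livers there missed the threshold. They were -2.74 ± 0.92 relative to control livers (adjusted p = 0.0799 by limma) and -2.46 ± 0.85 relative to pre-tumor livers (adjusted p = 0.0833). Of 28 other settings, 2 and 3 called them.

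The 3 feedback genes were near or under the detection limit. Axin2, whose single probe A_52_P54176 lies on chromosome 11, was well above background on 0 of 15 arrays, and its processed signals of 1.48 to 3.85 units gave no measurable comparison. Lgr5 was well above background on 5 arrays (control 1, pre-tumor 1, 2 and 4, and tumor 4) and Rnf43 on 6 (control 1 and 2, pre-tumor 1, 2 and 4, and tumor 4). All 4 arrays of highest E1A signal are among both. The level of Lgr5 was -1.56, -3.40 and -4.48 in control livers, -3.32, -2.39, -4.43 and -1.42 in pre-tumor livers, -4.99, -4.50, -3.95 and -3.01 in tumors, and -5.60, -5.95, -3.77 and -4.65 in regressing tumors. That of Rnf43 was -1.45, -1.89 and -4.20 in control livers, -3.10, -0.43, -4.00 and -1.82 in pre-tumor livers, -3.71, -4.86, -4.01 and -2.39 in tumors, and -4.00, -4.03, -4.47 and -3.45 in regressing tumors. No regressing tumor had a signal well above background for either gene. Neither gene was called by limma in regressing tumors (adjusted p = 0.155 for Lgr5 and 0.264 for Rnf43 against control livers, 0.079 and 0.182 against pre-tumor livers). A second probe of each was above background on at most 1 array.

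Ctnnb1, which encodes beta-catenin itself, was not called in any comparison. Its estimates in tumors and in regressing tumors relative to control livers were above 0, where those of Glul, Rhbg and Oat were below 0. Its brightest probe, A_52_P424585 (chromosome 9), had levels of 3.64, 3.41 and 2.46 in control livers, 3.77, 4.17, 4.87 and 3.39 in pre-tumor livers, 4.72, 5.14, 2.37 and 4.78 in tumors, and 4.94, 4.60, 3.45 and 4.84 in regressing tumors. Tumor 3 was the lowest array of all and the other 3 tumors were above every control liver. The difference between tumors and control livers was 1.09 ± 0.61 (adjusted p = 0.262 by limma), and it was called without tumor 3 (1.71, adjusted p = 0.0236). Between regressing tumors and control livers it was 1.29 ± 0.61 (adjusted p = 0.202). Probe A_51_P272046 was called in that comparison, among all probes, at 1.65 ± 0.44 (adjusted p = 0.0297 by limma), with levels of 3.88, 3.36, 2.72 and 3.10 in regressing tumors and 2.28, 1.49 and 1.06 in control livers. The probe A_52_P472397 gave 0.79 ± 0.63 there (adjusted p = 0.465), and -0.15 ± 0.63 in tumors against control livers, opposite in sign to the other 2 probes. Tumor 3, the lowest tumor on each of the 3 probes, had 46.4% of its spots well above background, the lowest share of the 15 arrays.

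**Figure D3:**
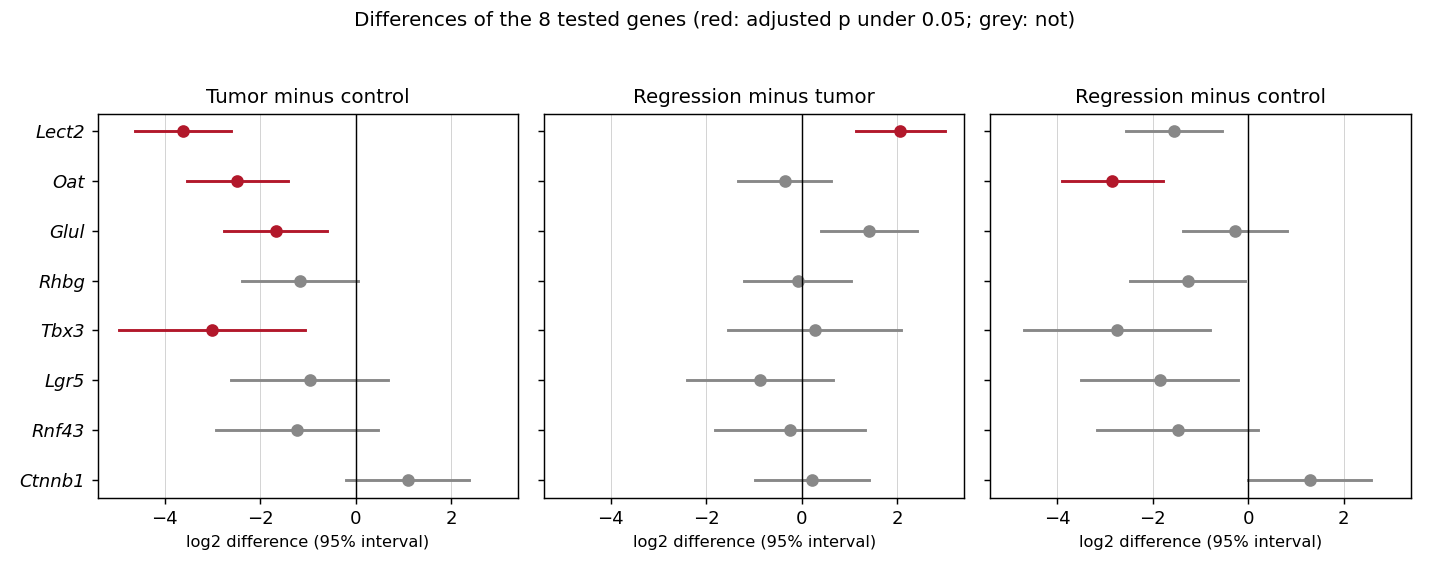
log2 differences of the 8 tested genes with 95% intervals (horizontal axis), for tumors minus control livers, regressing tumors minus tumors and regressing tumors minus control livers. Red marks an adjusted p under 0.05. Lect2, Oat, Glul and Tbx3 are red and below 0 in tumors, Lect2 alone is red in regressing tumors minus tumors, and Oat alone in regressing tumors minus control livers.

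Whether members moved by different amounts between regressing tumors and tumors was asked directly, from the difference of 2 members' levels within each array. All 28 pairs of the 8 tested members were compared by a two-sided exact permutation test over 4 regressing tumors and 4 tumors, whose smallest possible p is 0.0286. The level of Lect2 minus that of Oat was higher by 2.42 in regressing tumors than in tumors and minus that of Rhbg by 2.15, each with the smallest possible exact p of 0.0286 and an adjusted p of 0.2 over the 28 pairs. Glul minus Oat was higher by 1.77 (exact p = 0.0286, adjusted p = 0.2). In these 3 pairs the regressing tumors and the tumors do not overlap. The same held for Lect2 minus Lgr5, higher by 2.94 (exact p = 0.0286, adjusted p = 0.2). Lgr5 was, however, well above background on 1 of 4 tumors and 0 of 4 regressing tumors. No pair passed the adjustment. Pairs at the smallest possible p still had an adjusted p of 0.2, so a few differing pairs could not have passed. The adjusted values therefore do not decide whether these members moved differently. Glul minus Lect2 changed by an estimate of -0.66 (exact p = 0.229, adjusted p = 0.533).

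Arrays of the same slide were also compared. Each of the 4 slides held 1 tumor, 1 pre-tumor liver and 1 regressing tumor, and 3 also a control liver. Within slides the tumor was lower than the control liver for Lect2, Oat and Glul on 3 of 3 slides, by differences of -4.34 to -3.15 for Lect2, -3.27 to -1.91 for Oat and -2.29 to -1.12 for Glul. With the slide as a block the Glul call was lost, however (-1.73, adjusted p = 0.0779 by limma). For Tbx3 the tumor was lower on 2 of 3 slides and higher on 1. The regressing tumor exceeded the tumor on 4 of 4 slides for Lect2 (1.27 to 2.96) and for Glul (0.20 to 2.27).

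The genes whose levels followed each member most closely were ranked over the 15 arrays. These arrays include the 4 groups, so the correlations share the differences between groups. Whether Wnt genes are more or less frequent among the closest genes than among all genes was not tested. Lect2 was followed by Gstm6, a glutathione transferase (r = 0.986) and Akr1c6, an aldo-keto reductase (0.979). Oat was followed by Ccdc107 (r = 0.967), Immp2l (0.963) and Msra, a methionine sulfoxide reductase (0.957), and Glul by Mapkapk2, a stress kinase (0.958), Chp1 (0.954) and Habp2, a secreted protease (0.948). For Rhbg they were Gsta4 (r = 0.914), Mief2 and Cldn18 (both 0.908), and for Tbx3 Plcxd2 (0.864), 6330444E15Rik (0.859) and Rcan2 (0.848). Ctnnb1 was followed by Uba3 (r = 0.945), Atp2c1 (0.944) and Mrps6 (0.939). For Lgr5 and Rnf43, whose levels were mostly at background, the highest were Ankrd63 (r = 0.944) and Fam89a (0.863).

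Other zonated genes of both ends of the lobule were lower in tumors as well. Of all genes tested, 6.99% fell and 9.36% rose in tumors relative to control livers. Of 17 other pericentral genes tested, 15 fell and none rose there, with a median difference of -4.13 (all genes -0.18). Cyp2a5, a cytochrome P450, had -7.40 ± 0.56 (adjusted p = 2.89e-07), Rgn, regucalcin, -5.08 ± 0.48, Akr1c20 -6.84 ± 0.65, and Slc1a2, a glutamate transporter, -5.72 ± 0.55. Akr1c20 in tumors 2 and 3 and Slc1a2 in tumor 3 lay under the lowest level well above background on those arrays. The sizes of their falls thus rest in part on signals at the detection limit. Of 19 periportal genes 12 fell and 1 rose, with a median of -2.21. Fbp1 and Cyp2f2, of gluconeogenesis and xenobiotic metabolism, had -6.92 ± 0.49 and -7.84 ± 0.72. Pigr was at least 11.4-fold lower, being well above background on 0 of 4 tumors, and Aldh1b1 rose by 3.95 ± 0.50. In regressing tumors relative to tumors, 8 of the 17 pericentral and 11 of the 19 periportal genes rose and none fell. The median was 1.92 over all tested genes of either list, and 8.36% of all genes rose and 8.46% fell. Relative to control livers, 3.31% of all genes fell and 5.02% rose in regressing tumors. There 8 of the 17 pericentral genes were lower and none higher. They include Slc1a2 (-4.00 ± 0.55), Cyp2a5 (-3.92 ± 0.56) and Cyp1a2 (-4.15 ± 0.70). Of the periportal genes 8 were lower and 2 higher (Aldh1b1 and Ctsc). Whether the lists differ from each other was not tested.

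**Figure D4:**
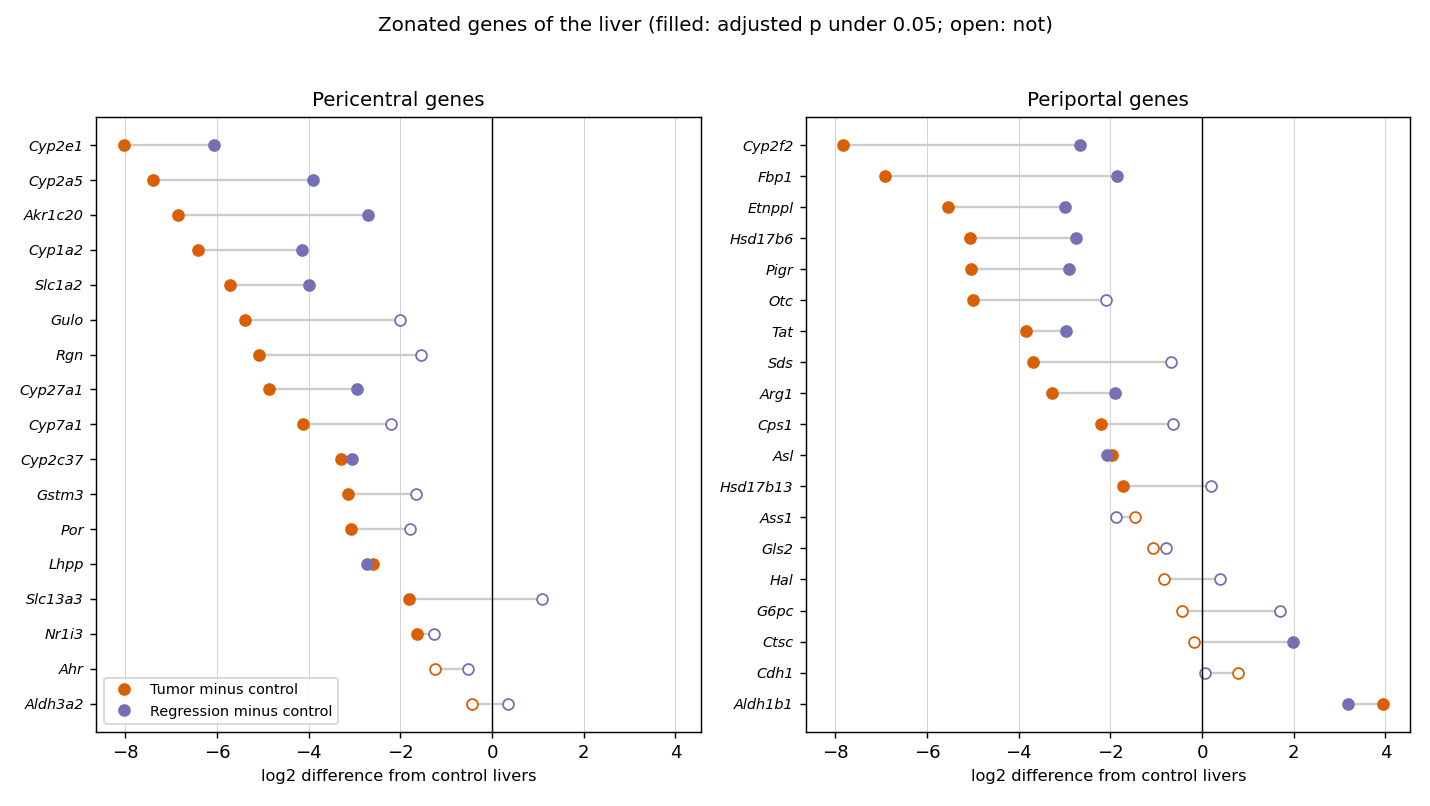
log2 differences of 17 pericentral and 19 periportal genes (1 row each) in tumors minus control livers and in regressing tumors minus control livers, on the horizontal axis. Filled points have an adjusted p under 0.05. Most tumor points lie left of 0 in both panels, and most points of regressing tumors lie between them and 0.

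Glul, Rhbg and Oat handle ammonia, glutamine and ornithine, and the other genes of these routes split in tumors. Of 19 tested, 6 rose and 5 fell relative to control livers, where 9.36% of all genes rose and 6.99% fell. Slc1a5, a glutamine importer, rose by 4.43 ± 0.54 and Odc1, which makes putrescine from ornithine, by 2.09 ± 0.34, while Otc, of the urea cycle, fell with -4.99 ± 0.66 (adjusted p of 2.97e-05, 0.000412 and 6.57e-05 by limma). In regressing tumors relative to tumors, Slc1a5 (-2.68 ± 0.50), Odc1 (-2.46 ± 0.31) and Slc7a5 (-2.15 ± 0.46) were among the 4 that fell, while Otc (2.89 ± 0.61) and Slc38a5 rose. Prodh and Slc25a15, the mitochondrial ornithine carrier, were low like Oat in both tumors (-2.56 ± 0.55 and -1.44 ± 0.45) and regressing tumors (-3.61 ± 0.55 and -1.91 ± 0.45), each relative to control livers.

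Few of the other Wnt genes were called. In tumors relative to control livers, the targets, ligands and receptors below fell at about the share of all genes. Of 22 further Wnt targets and feedback genes, 2 fell in tumors relative to control livers (Cldn2, a tight-junction protein, -3.75 ± 0.56, and Notum, which inactivates Wnt proteins, -1.47 ± 0.38) and none rose, beside 6.99% of all genes that fell. In regressing tumors relative to tumors Cldn2 (2.06 ± 0.52) and Cd44 (2.34 ± 0.49) rose. Znrf3, a homologue of Rnf43, was called lower, but it was well above background on 0 of 4 regressing tumors and 1 of 4 tumors, so its change has no measurable size. Among 24 ligand genes, Wnt2, made by liver endothelium and well above background on 1 of 4 tumors and 2 of 3 control livers, fell in tumors relative to control livers (-1.84 ± 0.58, adjusted p = 0.0392) and pre-tumor livers (-2.28 ± 0.53). Rspo3, the R-spondin of the central vein, was at least 1.59-fold lower in tumors than in pre-tumor livers (fitted -2.14, adjusted p = 0.018), with a signal above background on 0 of 4 tumors and 4 of 4 pre-tumor livers. The mean level of 9 endothelial markers was -1.72 to -1.37 in tumors and -0.66 to 0.30 in regressing tumors. It was -1.13 to -0.33 in control livers and -0.45 to 0.30 in pre-tumor livers. Of the 9, 5 were called higher in regressing tumors than in tumors. There Wnt2 was still called lower than in both liver groups and Rspo3 than in pre-tumor livers, both near or under the detection limit. The part of the endothelium in these changes was not tested. Wls, which carries Wnt proteins to the cell surface, rose in regressing tumors relative to tumors (1.59 ± 0.47). Of 17 receptor genes 1 fell in tumors relative to control livers (Fzd8, -1.46 ± 0.37).

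Inside the cell, 2 of 19 genes of the destruction complex and Dishevelled rose in tumors relative to control livers (Tnks2, a tankyrase, 2.46 ± 0.49, and Ppp2r1a, 1.22 ± 0.36), where 9.36% of all genes rose and 6.99% fell, and none was called in regressing tumors relative to tumors. Of 18 nuclear partners of beta-catenin, 3 rose in tumors (Tcf7l1, 2.30 ± 0.44, Smarca4, 1.74 ± 0.36, and Cdc73, 1.33 ± 0.41) and Hnf4a, the hepatocyte regulator, fell (-1.32 ± 0.40). Among 13 secreted antagonists 1 fell in tumors (Notum) and 1 rose in regressing tumors relative to tumors, Dkk3, by at least 7.01-fold. Of 10 adherens junction partners, 1 rose in tumors (Afdn, 1.51 ± 0.44). Markers of other cells rose in regressing tumors relative to tumors, where 8.36% of all genes rose. The counts were 5 of 8 for macrophages, 6 of 8 for stellate cells and fibroblasts and 5 of 9 for endothelium. For T, NK and B cells 3 of 7 rose, and for bile duct and progenitor cells 1 of 7. The mean level of the macrophage list was 2.53 to 3.90 in regressing tumors and 1.35 to 1.89 in tumors. That of the stellate list was 0.16 to 1.74 in regressing tumors and -1.27 to -0.56 in tumors, and the part of these cells in the members' levels was not tested.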

How the data were processed

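RNA of 15 livers and liver tumors was amplified, Cy3-labelled and read on Agilent 4x44K mouse arrays, per the labels' protocols, with Feature Extraction 10.5.1.1 and the build mm9, per the file headers. The deposited processed signal and the median spot and background signals are intensity values on a linear scale and are not scaled to each other across arrays. A table of log2 values, which the authors normalized and deposited, was an alternative, and its method is not given in the sources used here. It followed each array's own median signal (Spearman correlation 0.990 to 1.000 over probes), with column medians of 5.65 to 5.68.

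Levels are log2 processed signals less the 75th percentile of their array. Spots marked as outliers (0.452%) were left out and spots of a probe were averaged. Symbols come from the authors' table, and 4455 of 21538 were updated through RefSeq. limma 3.58.1 (R 4.3.3) was fitted to 19334 genes with 11 residual degrees of freedom and 6 comparisons, two-sided. Exact permutation tests used SciPy. The fit was tested on simulated data. Precision is limited by how few arrays each group has. The median signal was used for normexp because the mean signal is not among the columns used here. Alternatives were other normalizations and filters, slide and replicate block, probe choice and leaving out arrays. The members and lists were chosen with earlier results of these data known, and the 28 pairs and the omission of the 4 arrays of highest E1A signal were added after seeing the data. Every member is named with all its probes, up to 4 genes of a context list per comparison in order of adjusted p, and up to 3 genes of highest correlation per member. Some genes these rules name are not reported here.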

Additional observations from a re-analysis of the deposited data

Results flagged for a closer look

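In 2 of the 24 groups of 4 arrays checked, 3 for each of the 8 tested members, 1 array stood far from the others, with a gap to its nearest neighbour, as a share of the group's range, above Dixon's 95% critical value. Chance gives about 1 such array in 20 groups.

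The Lect2 level of pre-tumor 3 was 4.97, while the other pre-tumor livers had 3.92 to 4.05. Pre-tumor 3 was also the highest of its group for Oat and Glul. The Ctnnb1 level of tumor 3 was 2.37, while the other tumors had 4.72 to 5.14, and without it the difference between tumors and control livers was called (1.71, adjusted p = 0.0236 by limma).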

How the results depend on the processing

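Lect2 and Oat kept their calls in tumors, relative to control and pre-tumor livers, in all 27 alternatives, and no called difference of a member changed sign in any alternative. Of the members called in tumors against control livers, 4 became 2 (Lect2 and Oat) without the 4 arrays of highest E1A signal, and the count ranged from 2 to 4 when single arrays were left out, with 2 without control 1 or tumor 1. Against pre-tumor livers it ranged from 3 to 5. In regressing tumors against tumors the count of 1 became 2, with Glul beside Lect2, under quantile normalization with and without normexp, in the authors' table, with probes above background on every array of 1 group, with the replicate block, with only the 2 groups compared, with a trended robust variance, with the mean of a gene's probes and with every probe tested on its own. It ranged from 1 to 2 over left-out arrays. In regressing tumors against control livers the count of 1 became 2, with Lect2 beside Oat, under quantile normalization with and without normexp, in the authors' table and with probes above background on every array of 1 group, 3 with a trended robust variance (Tbx3 in addition), and 2 with every probe on its own, where a Ctnnb1 probe was higher. It ranged from 1 to 2 over left-out arrays. In regressing tumors against pre-tumor livers the count of 2 became 4 with only the 2 groups compared (Rhbg and Tbx3 in addition). It became 3, with Rhbg, with probes above background on every array of 1 group and with a trended robust variance. Without the 4 arrays of highest E1A signal it also became 3, with Tbx3. It ranged from 2 to 3 over left-out arrays. Where no cause is named, it was not tested.

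Over all genes, 1610 calls in regressing tumors against control livers became 989 with the slide as a block, 3534 with the replicate block, and 1050, 1061 and 1026 without control 1, control 3 and regressing tumor 1. In pre-tumor against control livers 0 became 11 with normexp, 3 in the authors' table, 1 with a trended robust variance and up to 3 over left-out arrays. Whether the replicate numbers pair the arrays is not settled by the deviations of the arrays from their group means. Their correlations were -0.44 to 0.61 (median 0.12) for same-numbered arrays and -0.62 to 0.54 (median -0.04) for arrays of other numbers. The replicate block is therefore given here only. Low signal limits Axin2, Lgr5 and Rnf43.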
